A study of Sparus aurata with 9 samples.

Results

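The insulin-like growth factor binding proteins (Igfbps) were followed in fast muscle myoblasts of gilthead sea bream (Sparus aurata). Members were all genes whose symbol reads igfbp with a number from 1 to 7, with or without a copy letter, in upper or lower case. The rule found 12 of the 27159 genes in the table, and no further gene carried a description as an Igf binding protein.

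Cells isolated from fast-twitch muscle were grown for 8 days and then kept in a medium without amino acids. CTR cells stayed in it for 36 h, while AA cells spent 12 h in it and then 24 h in a medium with amino acids, and Igf-1 cells spent 12 h in it and then 24 h in the same medium with recombinant sea bream Igf-1. Each group had 3 poly(A) RNA libraries, and none was taken at 12 h, before the treatments. Words such as fell and rose therefore mean lower or higher than in the compared group. A change in CTR after 12 h cannot be told apart from a change under treatment. The AA medium was built on another basal medium than that of CTR, and the Igf-1 medium also held serum albumin as a carrier, so these differences and the named treatments cannot be told apart. The study worked with 3 independent cultures and the labels do not tie libraries to cultures, so the p-values measure the spread between libraries taken as independent.

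Igfbps are secreted proteins that bind Igf-1 and Igf-2 outside the cell and hold them away from the Igf-1 receptor, or deliver them to it after a protease has cut the binding protein. Teleost fish carry several members as pairs of a and b copies left by an ancient genome duplication. In muscle, Igf signalling promotes myoblast growth and differentiation, and myoblasts make binding proteins of their own.

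Of the 12 members, 9 passed the filter on low counts and were tested. IGFBP1 (ENSSAUG00010023441) and igfbp2b (ENSSAUG00010015599) were at 0 in all 9 libraries. IGFBP3 (ENSSAUG00010023443) had 13 counts in CTR library 3, 8 in each of Igf-1 libraries 2 and 3 and 0 in the others. Here 12 counts correspond to about 3 sequenced pairs and were set as the upper limit for a library at 0. This limit was chosen, not measured. In the RefSeq gene table of assembly fSpaAur1.1, IGFBP1 lies beside IGFBP3 on chromosome 21, igfbp1a beside igfbp3 on chromosome 11, igfbp2b beside the gene listed here as IGFBP5 (igfbp5b in RefSeq) on chromosome 9, and igfbp2a beside igfbp5a on chromosome 24. The files name no genome build, so no positions are given.

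Library totals ran from 48725967 to 67887824 counts, and the TMM scaling factors from 0.791 in CTR library 3 to 1.21 in AA library 3. Levels are given as normalized counts, which are counts scaled to the mean effective library size, and as FPKM, which is also per length. Ratios, shares and ranks of members use FPKM only. Sums of normalized counts, given for marker lists and the family, depend on gene length as well. A gene passed at an adjusted p (Benjamini-Hochberg over all 17687 genes tested, edgeR quasi-likelihood test) of at most 0.05 with a log2 fold change (log2FC) of at least 1 in size. The muscle list held 14 symbols, which matched 9 genes, and all 9 were detected, among them myog and ckma. Mean normalized counts of these genes in CTR ran from 25.0 for desmb, a low level, to 144570 for ckma, the largest part of their sum. The summed normalized count of the 9 genes was 195370 to 310830 in CTR against 380590 to 523660 in AA and 257230 to 329280 in Igf-1. Fibroblast markers were abundant as well, with sums of 634500 to 768050 in CTR against 785130 to 854670 in AA and 728870 to 769540 in Igf-1. Most of these sums came from the collagen genes col1a1a, col1a1b and col1a2. In such bulk RNA, fewer cells of a type and less RNA per cell cannot be told apart.

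Both igfbp6 copies fell in AA and in Igf-1, igfbp2a rose in AA, and the other 6 tested members did not pass in any comparison. In AA vs CTR, 3 of 9 tested members passed (1 higher, 2 lower), where 8.62% of all tested genes did (4.83% higher, 3.79% lower). In Igf-1 vs CTR, 2 of 9 passed, both lower, where 0.26% of all tested genes passed (0.141% higher, 0.119% lower). In AA vs Igf-1, 2 of 9 passed (1 higher, 1 lower), beside 4.33% of all tested genes (2.43% higher, 1.89% lower). The median log2FC of the 9 members was 0.22, −0.12 and 0.07 in these comparisons, beside −0.01, −0.0045 and −0.03 over all genes. The comparisons with CTR share the CTR libraries, so their values are given side by side only.

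**Figure D1:**
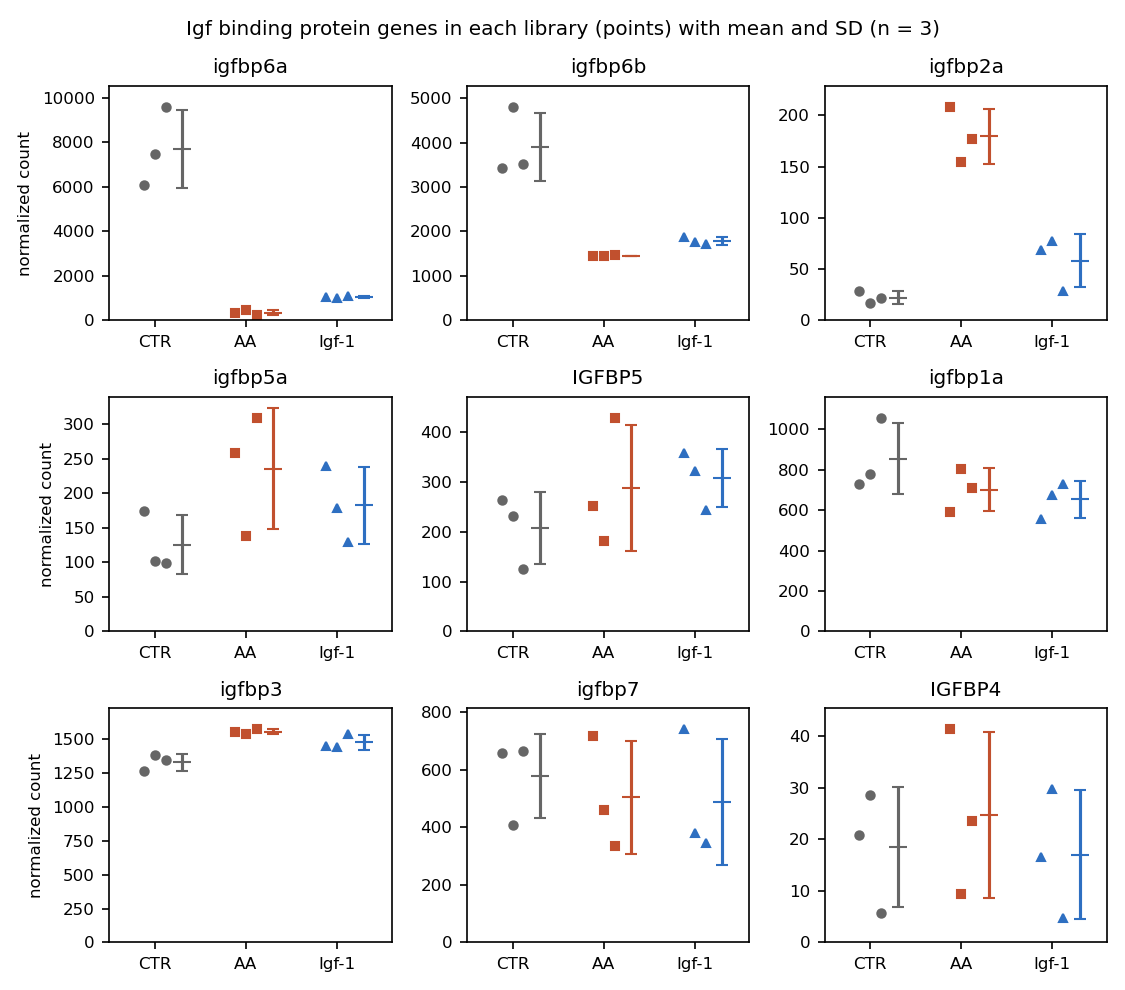
Normalized count (vertical axis, from 0) of the 9 tested Igf binding protein genes in each library of CTR, AA and Igf-1. Points are libraries, and the bar beside them is the mean with its SD (n = 3). The CTR libraries of igfbp6a (6073 to 9578) and igfbp6b (3418 to 4792) lie above all treated libraries, and the AA libraries of igfbp2a (154 to 208) above all others.

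The gene with the widest range was igfbp6a (ENSSAUG00010024298). In mammals IGFBP6 binds Igf-2 in preference to Igf-1. The files give this gene the symbol igfbp6a and the description insulin-like growth factor-binding protein 5. In the RefSeq table it lies on chromosome 6, and its neighbours within 8 genes on each side share agap2, marchf9 and spryd3 with those of igfbp6b on chromosome 7, while no neighbour is shared with either igfbp5 gene. The study measured this gene by qPCR as well, and its primers are shown as the sequences the study lists under this name, not matched here to any transcript:

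igfbp6a forward: ctgaaactgtccaaacggcag

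igfbp6a reverse: catgggcatcaagaccttcg

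The normalized counts of igfbp6a were 6073, 7467 and 9578 in CTR, 342, 452 and 265 in AA, and 1068, 1021 and 1113 in Igf-1. All 3 groups were separated, with CTR highest, Igf-1 between and AA lowest. The means were 7706 ± 1765 in CTR against 353 ± 94.2 in AA and 1067 ± 45.8 in Igf-1 (SD, n = 3). The level was 21.9-fold lower in AA than in CTR (log2FC −4.45, SE 0.25, edgeR adjusted p = 3.4e-05), second by p of all genes tested. In Igf-1 vs CTR it was 7.22-fold lower (log2FC −2.85, SE 0.23, edgeR adjusted p = 0.0028). That was the smallest p of that comparison and the 3rd largest fall among its 21 genes that fell. AA was 3.03-fold below Igf-1 (log2FC −1.60, SE 0.22, edgeR adjusted p = 0.0024). All 3 calls held with any single library left out, with adjusted p up to 0.00046, 0.045 and 0.020.

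The second copy, igfbp6b (ENSSAUG00010010033), moved in the same direction over a narrower range. Its normalized counts were 3418, 4792 and 3507 in CTR, 1448, 1448 and 1461 in AA, and 1880, 1755 and 1718 in Igf-1. CTR lay above both treated groups, and Igf-1 lay above AA without overlap. AA was 2.69-fold below CTR for igfbp6b (log2FC −1.43, SE 0.16, edgeR adjusted p = 3.5e-04). In Igf-1 vs CTR it was 2.19-fold lower (log2FC −1.13, SE 0.16, edgeR adjusted p = 0.018). The call in Igf-1 vs CTR was lost when CTR library 2, AA library 1 or any Igf-1 library was left out, and the adjusted p then reached 0.16. AA and Igf-1 differed by a log2FC of −0.30 (95% interval −0.64 to 0.05, edgeR adjusted p = 0.32), which did not pass.

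The copies were also compared with each other, per length. The FPKM of igfbp6a divided by that of igfbp6b was 4.19 ± 1.29 in CTR (3.23 to 5.66) against 0.503 ± 0.136 in AA (0.375 to 0.647) and 1.24 ± 0.0882 in Igf-1 (1.18 to 1.34). In CTR igfbp6a was the more abundant copy in every library, in AA igfbp6b was, and in Igf-1 igfbp6a was slightly ahead in all 3. On the log2 scale the ratio averaged 2.02 ± 0.42 in CTR against −1.03 ± 0.39 in AA and 0.31 ± 0.10 in Igf-1. The differences were −3.05 for AA vs CTR, −1.71 for Igf-1 vs CTR and −1.34 for AA vs Igf-1. Each had p = 0.10 in a two-sided exact permutation test over libraries, the smallest that 3 against 3 allows, and 0.15 after adjustment over 6 ratio comparisons. How reads that match both copies were counted is not stated in the sources used here.

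**Figure D2:**
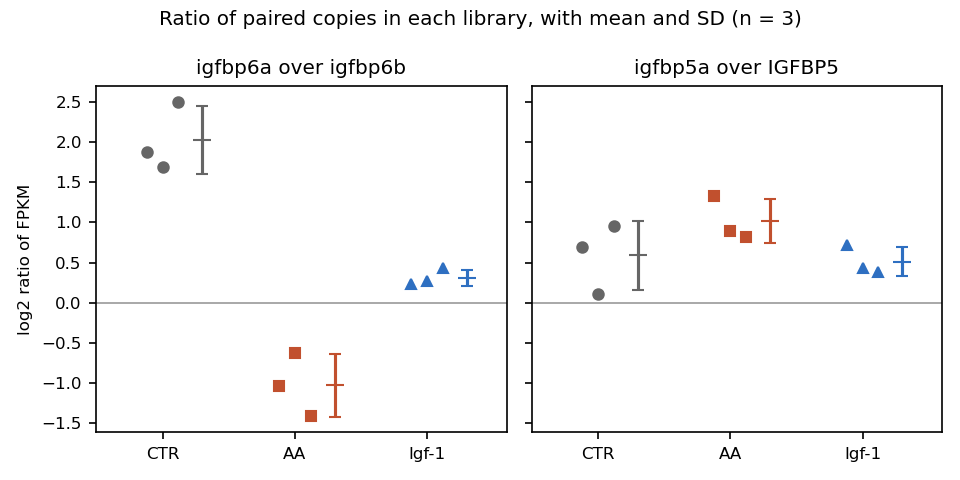
log2 ratio of FPKM (vertical axis) of igfbp6a over igfbp6b and of igfbp5a over IGFBP5 in each library, with the mean and SD beside the points (n = 3). The igfbp6 ratio is separate in CTR (1.69 to 2.50), Igf-1 (0.24 to 0.43) and AA (−1.41 to −0.63), while that of the igfbp5 copies overlaps between CTR and both treated groups.

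The only member that passed as higher in AA was igfbp2a (ENSSAUG00010024704). In mammals IGFBP2 binds both Igfs and also binds integrins at the cell surface. Its normalized counts were 28.5, 16.5 and 21.7 in CTR, 208, 154 and 177 in AA, and 69.0, 77.0 and 28.9 in Igf-1. AA lay above both other groups, and the lowest Igf-1 library was only just above the highest CTR library. By FPKM that Igf-1 library (0.222) lay below that CTR library (0.246). The level of igfbp2a was 8.01-fold higher in AA than in CTR (log2FC 3.00, SE 0.45, edgeR adjusted p = 0.0016), and this call held with any single library left out (adjusted p up to 0.0095). The fold rests on low CTR counts of 30, 15 and 15 before scaling, against the 12 counts of about 3 pairs. In Igf-1 vs CTR the log2FC was 1.38 (95% interval 0.42 to 2.35, edgeR adjusted p = 0.28), which did not pass.

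AA exceeded Igf-1 for igfbp2a by a log2FC of 1.62 (SE 0.42, edgeR adjusted p = 0.040). That call was lost in 7 of 9 fits with a library left out, namely without CTR library 1 or any AA or Igf-1 library, with adjusted p up to 0.13. The other igfbp2 copy, igfbp2b, was at 0 in every library of every group.

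The igfbp5 genes showed wide spread between libraries. IGFBP5 is made during differentiation of mammalian myoblasts. The normalized counts of igfbp5a (ENSSAUG00010024703), the chromosomal neighbour of igfbp2a, were 175, 102 and 99.6 in CTR, 259, 139 and 309 in AA, and 240, 178 and 129 in Igf-1. The highest CTR library lay above the lowest AA and Igf-1 libraries. The log2FC was 0.90 in AA vs CTR (95% interval 0.06 to 1.75, edgeR adjusted p = 0.15) and 0.54 in Igf-1 vs CTR (−0.31 to 1.38, edgeR adjusted p = 0.81), and neither passed. For IGFBP5 (ENSSAUG00010015605) the normalized counts were 263, 231 and 126 in CTR, 252, 182 and 427 in AA, and 357, 322 and 243 in Igf-1, again with overlap. Its log2FC was 0.47 in AA vs CTR (−0.35 to 1.29, edgeR adjusted p = 0.47) and 0.57 in Igf-1 vs CTR (−0.25 to 1.39, edgeR adjusted p = 0.77).

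The ratio of igfbp5a to IGFBP5, a comparison added after the data were seen, differed by 0.43 between AA and CTR, −0.08 between Igf-1 and CTR and 0.51 between AA and Igf-1 on the log2 scale. The two-sided exact permutation p-values were 0.3, 1 and 0.1, or 0.36, 1 and 0.15 after adjustment over the 6 ratio comparisons.

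The linked pair of igfbp1a and igfbp3 was steadier. In fish, Igfbp1 is known mainly as a liver protein that rises in fasting, and in mammals IGFBP3 carries most circulating Igf. The normalized counts of igfbp3 (ENSSAUG00010014354) were 1263, 1387 and 1344 in CTR, 1553, 1537 and 1573 in AA, and 1453, 1439 and 1539 in Igf-1. Both treated groups lay above CTR without overlap, but the difference was small. By FPKM, the CTR libraries of igfbp3 (3.57 to 5.04) overlapped those of AA (4.78 to 6.37) and Igf-1 (4.71 to 5.22). The log2FC was 0.22 in AA vs CTR (95% interval −0.06 to 0.51, edgeR adjusted p = 0.29) and 0.15 in Igf-1 vs CTR (−0.13 to 0.43, edgeR adjusted p = 0.87). These intervals lie within the fold threshold of 1 on either side.

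For igfbp1a (ENSSAUG00010014351) the normalized counts were 731, 776 and 1054 in CTR, 591, 805 and 708 in AA, and 554, 675 and 728 in Igf-1. Igf-1 lay just below CTR without overlap, and AA overlapped CTR. The log2FC was −0.28 in AA vs CTR (−0.75 to 0.18, edgeR adjusted p = 0.44) and −0.39 in Igf-1 vs CTR (−0.85 to 0.08, edgeR adjusted p = 0.68).

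IGFBP7 is a relative that binds Igfs weakly in mammals. The normalized counts of igfbp7 (ENSSAUG00010002740) were 658, 409 and 667 in CTR, 718, 460 and 335 in AA, and 741, 380 and 345 in Igf-1, and all groups overlapped. The log2FC was −0.20 in AA vs CTR (−1.01 to 0.62, edgeR adjusted p = 0.80) and −0.24 in Igf-1 vs CTR (−1.06 to 0.58, edgeR adjusted p = 0.96). The normalized counts of IGFBP4 (ENSSAUG00010001470), an inhibitor of Igf action in mammals, were 20.9, 28.6 and 5.8 in CTR, 41.3, 9.3 and 23.5 in AA, and 16.6, 29.7 and 4.8 in Igf-1. At this depth its interval of −1.61 to 2.41 in AA vs CTR spans changes in both directions past the fold threshold.

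Over the 9 tested members, the normalized counts of AA and CTR did not overlap for 4, beside 30.7% of all tested genes. Those of Igf-1 and CTR did not overlap for 5, beside 17.2%, and those of AA and Igf-1 for 3, beside 30.3%. Some of these separations depend on the scale. By FPKM, igfbp2a and igfbp3 overlapped between Igf-1 and CTR, igfbp3 between AA and CTR, and igfbp6b between AA and Igf-1.

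**Figure D3:**
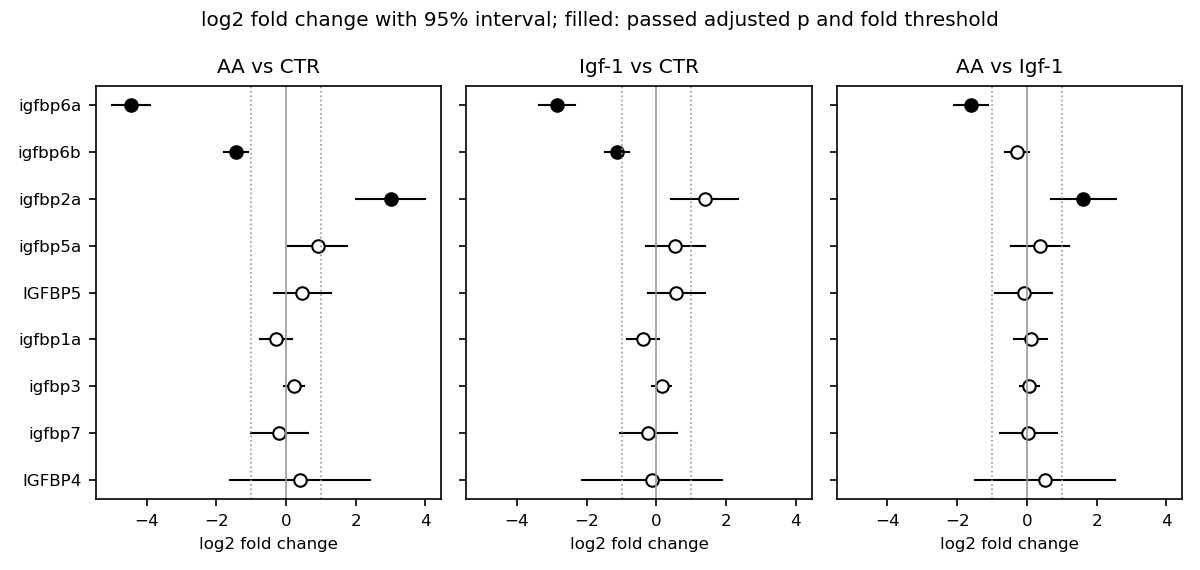
log2 fold change (horizontal axis) of the 9 tested Igf binding protein genes in AA vs CTR, Igf-1 vs CTR and AA vs Igf-1, with 95% intervals as lines. Filled points passed the adjusted p and the fold threshold (dotted lines at −1 and 1). In AA vs CTR igfbp6a (−4.45), igfbp6b (−1.43) and igfbp2a (3.00) are filled, in Igf-1 vs CTR both igfbp6 copies, and in AA vs Igf-1 igfbp6a and igfbp2a.

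Per length, the family was dominated by igfbp6a in CTR. Summed over the 10 members above 0 in at least 1 library, FPKM was 119, 142 and 121 in the CTR libraries, 41.7, 34.0 and 45.4 in those of AA, and 54.5, 42.7 and 39.9 in those of Igf-1. CTR lay above both treated groups, which overlapped each other. As summed normalized counts, AA (5186 to 5411) lay below Igf-1 (5857 to 6377) without overlap, with CTR (12629 to 16421) above both. The CTR mean of summed FPKM, 128 ± 13.0 (SD, n = 3), stood beside 40.4 ± 5.85 in AA and 45.7 ± 7.74 in Igf-1. It was 3.16-fold higher in CTR than in AA and 2.79-fold higher than in Igf-1. Each comparison with CTR had p = 0.10 in a two-sided exact permutation test, the smallest possible (0.15 adjusted over 3 comparisons), and AA vs Igf-1 had p = 0.5. Without both igfbp6 copies the sums were 23.3 ± 3.31 in CTR against 28.0 ± 5.41 in AA and 24.0 ± 5.87 in Igf-1, with exact permutation p-values of 0.3, 0.9 and 0.5 for AA vs CTR, Igf-1 vs CTR and AA vs Igf-1.

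CTR libraries drew 65.2% ± 5.02 of this sum from igfbp6a, AA libraries 10.4% ± 3.16 and Igf-1 libraries 26.6% ± 2.93. In the same order of groups, igfbp6b made up 16.3% ± 3.70, 20.6% ± 1.36 and 21.4% ± 1.04, and igfbp2a 0.142% ± 0.0567, 3.83% ± 0.337 and 1.04% ± 0.449. The sum itself was lower in AA and Igf-1, so members with little change in level rose in share too. The share of igfbp7 was 6.78%, 19.8% and 16.0% and that of igfbp3 3.41%, 13.6% and 10.9%, though neither gene passed. In CTR the order of mean FPKM was igfbp6a (83.2), igfbp6b (21.0), igfbp7 (8.48), igfbp1a (6.0), igfbp3 (4.36), igfbp5a (2.40), IGFBP5 (1.65), IGFBP4 (0.216) and igfbp2a (0.178). Neighbours in this order did not overlap between libraries, except igfbp5a with IGFBP5 and IGFBP4 with igfbp2a.

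In AA the order was igfbp6b (8.30), igfbp7 (7.93), igfbp3 (5.46), igfbp1a (5.39), igfbp5a (4.90), igfbp6a (4.08), IGFBP5 (2.47), igfbp2a (1.56) and IGFBP4 (0.293), and each neighbouring pair overlapped except igfbp2a with IGFBP4. The first member in CTR was thus the 6th in AA. In Igf-1 igfbp6a (12.0) was again first, above igfbp6b (9.72) without overlap, and igfbp2a (0.481) was 8th.

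**Figure D4:**
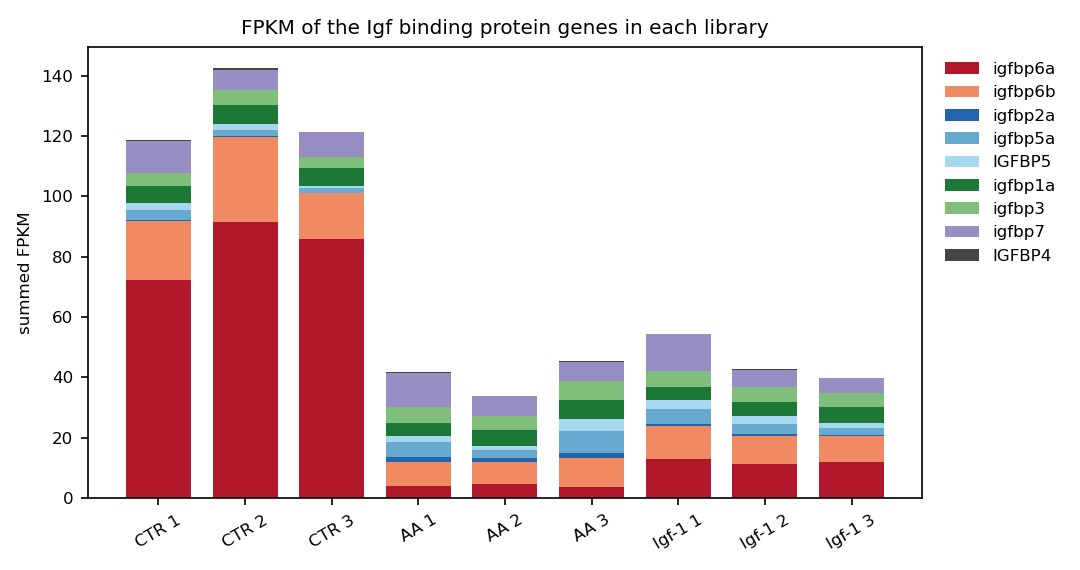
Summed FPKM (vertical axis, from 0) of the 9 tested Igf binding protein genes in each library, with each gene's part stacked in its colour. The untested IGFBP3, at most 0.0966 in a library, is in the sums of the text but is not drawn. The CTR bars reach 119 to 142, mostly igfbp6a, and the AA and Igf-1 bars 34.0 to 54.5, with igfbp6a a small part in AA.

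Over the 9 libraries, the log2 normalized counts of igfbp6a and igfbp6b correlated with a Pearson r of 0.95, those of igfbp6a and igfbp2a with −0.93, of igfbp6a and igfbp3 with −0.89, and of igfbp5a and IGFBP5 with 0.80. These describe 9 points that share 3 treatments. Outside the family, among 11734 genes with a symbol and a mean normalized count of at least 50, those most like igfbp6a were edn1 (r = 0.99), which encodes the vasoconstrictor endothelin 1, twist1b (r = 0.99), a transcription factor of mesenchyme, and plvapb (r = 0.99), a protein of endothelial vesicles. The gene with the symbol twist1b carries the description twist-related protein 2-like. Like igfbp6a, edn1 fell in AA (log2FC −4.05, SE 0.37, edgeR adjusted p = 1.2e-04) and in Igf-1 (log2FC −2.66, SE 0.34, edgeR adjusted p = 0.013). The genes most like igfbp6b were sdf4, sptlc2b and GDF10 (r = 0.99, 0.99 and 0.98). Those most like igfbp2a were prim2, a DNA primase subunit, arl13a and sar1ab (each r = 0.98).

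For the other 6 tested members the nearest genes had an r of 0.90 to 0.97. They were nhsa, sema6dl and mrc1b for igfbp5a, plpp2b, cadm1a and dlc1 for IGFBP5, padi2, polr1b and nle1 for igfbp1a, ccdc13, sema7a and svep1 for igfbp3, kcng4a, hyal3 and acp5a for igfbp7, and arhgef11, badb and bmt2 for IGFBP4.

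Markers of other cell types also moved. Among 7 endothelial markers, plvapb fell in AA (log2FC −3.66) and in Igf-1 (−2.13), while kdr, a receptor of vascular growth factor, rose in AA (1.22). In Igf-1 vs CTR the log2FC of kdr was 1.35 (edgeR adjusted p = 0.054), which did not pass. By DESeq2, 2 of the 7 endothelial markers passed in Igf-1 vs CTR, where 1 passed by edgeR. The summed endothelial markers were 4188 to 6926 normalized counts in CTR against 2325 to 2834 in AA and 2906 to 3460 in Igf-1. Without plvapb the other 6 summed to 1452 to 1760 in CTR against 2040 to 2554 in AA and 2096 to 2306 in Igf-1, a sum chosen after the values were seen. Of 8 tested fibroblast markers, twist1b (log2FC −1.19) and fap (−1.14) passed as lower in AA vs CTR. Also lower was pdgfra (−0.65, edgeR adjusted p = 0.018), below the fold threshold. The log2FC was −0.26 for dcn (edgeR adjusted p = 0.32) and 0.18 for lum (edgeR adjusted p = 0.69). The collagen genes col1a1a and col1a1b each had a log2FC of 0.53 (edgeR adjusted p = 0.067 and 0.058), and col1a2 had −0.0011. The sum of the list, given above, was higher in AA than in CTR, and these collagen genes made up most of it. In Igf-1 vs CTR none of the 8 fibroblast markers passed, by edgeR or by DESeq2, and 2 had an unadjusted edgeR p under 0.05.

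Of 7 tested pigment cell markers, 3 passed as lower in AA vs CTR, and their sum was 1858 to 2600 in CTR against 633 to 1038 in AA and 1383 to 1818 in Igf-1. Of 5 leukocyte markers 1 passed as higher in AA, with sums of 6989 to 11479 in CTR against 12217 to 17456 in AA and 11354 to 15322 in Igf-1. Among 7 tested neural and glial markers 2 passed as higher in AA, with elavl3 and elavl4 at 0 and sums of 2163 to 2845 in CTR against 2044 to 3120 in AA and 2387 to 2538 in Igf-1. Of 3 adipocyte markers none passed in AA vs CTR by edgeR or DESeq2, and 1 had an unadjusted edgeR p under 0.05. The part of these cell types in the binding protein values was not tested.

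Of the ligands and receptors of the system, none of 7 tested genes passed in any comparison, by edgeR or by DESeq2. At an unadjusted edgeR p under 0.05 there was 1 in AA vs CTR, 0 in Igf-1 vs CTR and 1 in AA vs Igf-1. The median log2FC was −0.20 in AA vs CTR and −0.34 in Igf-1 vs CTR. The SE of these genes in AA vs CTR ran from 0.13 for insra to 1.76 for igf1. For some of them a change past the fold threshold could therefore have been missed. The ligand igf2b (ENSSAUG00010020999) had 3393 normalized counts on average in CTR against 2562 in AA and 2834 in Igf-1. Its log2FC was −0.41 in AA (SE 0.34, edgeR adjusted p = 0.50) and −0.26 in Igf-1 (SE 0.34, edgeR adjusted p = 0.94). The transcript of igf1 (ENSSAUG00010015109) was at 0 to 20.9 normalized counts in each library, too low to compare. For igf2r, which clears Igf-2 in mammals, the log2FC was −0.15 in AA (SE 0.72) and −0.43 in Igf-1 (SE 0.72). Its normalized counts spread widely, from 280 to 1238.5 in CTR and from 183 to 1307 in AA. The insulin receptor gene insra (ENSSAUG00010026998) was lower in AA by a log2FC of −0.48 (edgeR adjusted p = 0.028), below the fold threshold.

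Of 6 receptor substrates, GRB14 (ENSSAUG00010020974), an adapter that inhibits insulin receptor signalling, passed as higher in AA vs CTR (log2FC 1.45, SE 0.21, edgeR adjusted p = 0.0013) and in AA vs Igf-1 (1.30, SE 0.21, edgeR adjusted p = 0.0045). Its normalized counts were 468, 357 and 331 in CTR, 939, 949 and 1267 in AA, and 438, 436 and 407 in Igf-1, so that AA stood above both other groups. The log2FC in AA vs CTR was −0.61 for irs2a, −0.49 for irs2b and 0.71 for shc1, and none passed.

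Among 8 tested proteases and partners of the binding proteins, 5 had an unadjusted edgeR p under 0.05 in AA vs CTR, and 1 of these passed. This was adam12 (ENSSAUG00010005289), a protease whose mammalian relative cuts IGFBP3 and IGFBP5 (log2FC 2.06, SE 0.53, edgeR adjusted p = 0.024). Its CTR normalized counts were low, at 25.6, 17.6 and 46.2. Its call was lost without CTR library 1, CTR library 2 or AA library 3 (adjusted p up to 0.085), and its log2FC in Igf-1 vs CTR was 1.73 (edgeR adjusted p = 0.25). The second copy, ADAM12 (ENSSAUG00010023879), had a log2FC of 0.36 in AA and 0.44 in Igf-1. The log2FC of htra3a in AA vs CTR was 0.95 (edgeR adjusted p = 0.15). That of STC2, whose mammalian relative blocks a binding protein protease, was −0.52 (edgeR adjusted p = 0.036, below the fold threshold). With a library left out, the adjusted p of STC2 reached 0.12. The related stc1 went the other way (log2FC 2.22, SE 0.97, edgeR adjusted p = 0.16), with low CTR normalized counts of 14.2, 4.4 and 0.

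Other secreted proteins share the amino-terminal Igf binding domain with the family. Of 8 tested genes 4 passed in AA vs CTR (1 higher, 3 lower) with a median log2FC of −1.06, and in Igf-1 vs CTR 1 passed, lower, with a median of −0.91. The matricellular ccn5 (ENSSAUG00010008438) had normalized counts of 1137, 2542 and 1541 in CTR, 170, 105 and 148 in AA, and 250, 198 and 356 in Igf-1, with CTR above both. It fell in AA (log2FC −3.62, SE 0.36, edgeR adjusted p = 2.1e-04) and in Igf-1 (−2.70, SE 0.35, edgeR adjusted p = 0.013). The second call was lost without CTR library 2 or any Igf-1 library, with adjusted p up to 0.12.

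Its relatives ccn2a (ENSSAUG00010024504), a connective tissue growth factor, and ccn4a (ENSSAUG00010023761) fell in AA by 1.40 and 1.46 on the log2 scale (edgeR adjusted p = 0.0029 and 0.0012). In Igf-1 their log2FC was −0.90 and −0.91, which did not pass (edgeR adjusted p = 0.16 and 0.11). In contrast esm1 (ENSSAUG00010010933), a secreted proteoglycan, rose in AA (log2FC 2.29, SE 0.46, edgeR adjusted p = 0.0075), and in Igf-1 it had a log2FC of 2.34 (edgeR adjusted p = 0.070). Both values for esm1 rest on low CTR normalized counts of 16.1, 16.5 and 23.1. The lists were written with results on some of these genes known, so their counts are a description.

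**Figure D5:**
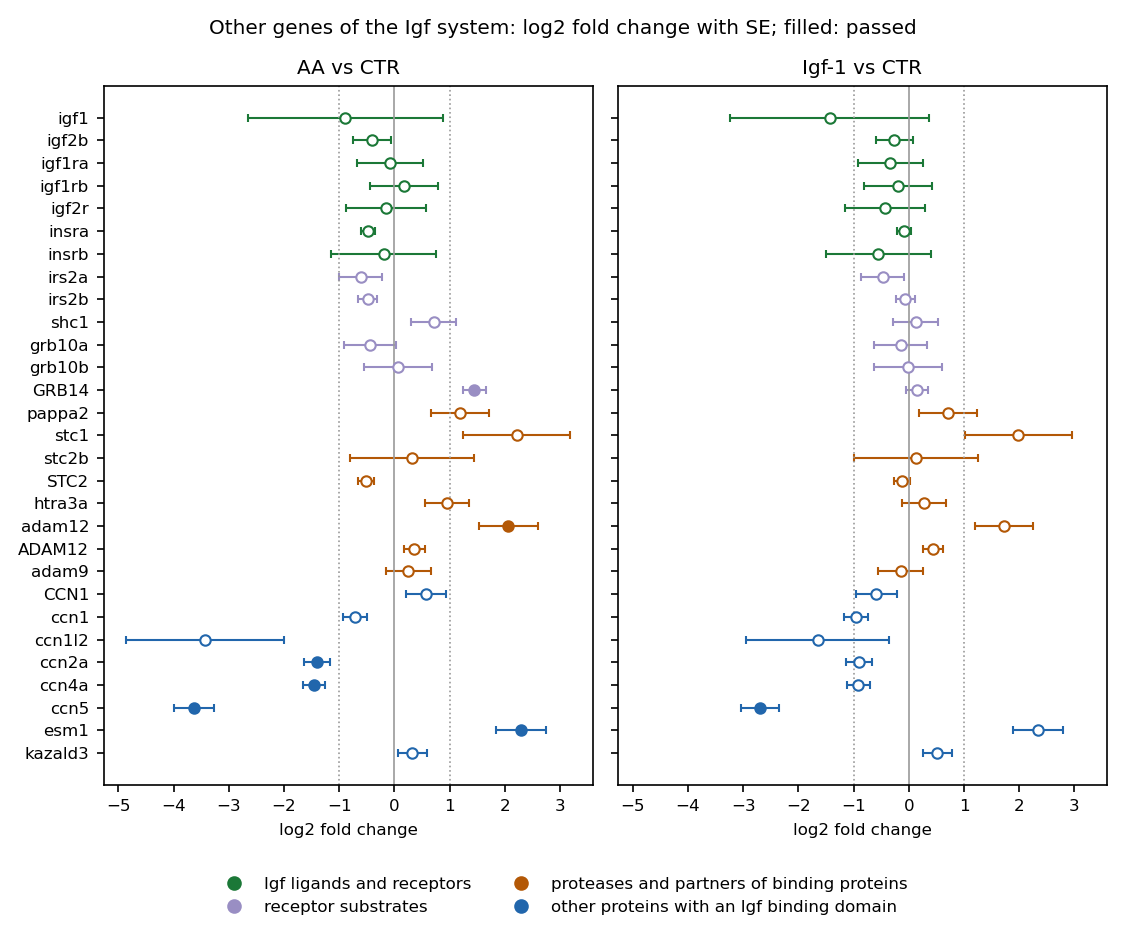
log2 fold change (horizontal axis) with its SE for 29 tested genes of the Igf system outside the binding protein family, in AA vs CTR (left) and Igf-1 vs CTR (right), coloured by list. Filled points passed. In AA vs CTR GRB14, adam12 and esm1 lie to the right and ccn2a, ccn4a and ccn5 to the left, and in Igf-1 vs CTR ccn5 (−2.70) is the filled point.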

How the data were processed

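RNA of 9 libraries (3 each of CTR, AA and Igf-1) was measured by paired-end sequencing of stranded poly(A) libraries. The authors removed adapters and poor reads, mapped the rest with HISAT2 to the Ensembl genome (build not given in the sources used here) and estimated expression with StringTie. The use of strand in counting is not given. The authors named the deposited table normalized, but its totals differ between libraries, and the values cluster at 4, 8 and 12. It was read here as the authors' estimated counts from StringTie coverage, about 4 per sequenced pair. The deposited FPKM tables hold the FPKM of AA and Igf-1 for all genes, but of CTR only for genes the authors selected. Therefore, CTR FPKM was computed from the counts with each gene's own count-to-FPKM ratio in the other libraries, which gave the 18 deposited CTR values of members within 0.649%. The deposited fold changes and p-values of the authors were not used.

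Counts were rounded, filtered with filterByExpr, scaled with TMM and fitted with all 3 groups together by the quasi-likelihood test of edgeR 4.0.16 in R 4.3.3, with no block, which left 17687 genes. The SE is the size of the log2FC divided by the root of the F statistic, and 95% intervals use its t quantile. Summed FPKM and ratios were compared with exact permutation tests over libraries. Intervals and floors cover error between these libraries or of counting only. The edgeR fit was also run on counts simulated from its own dispersion estimates, which cannot show how well its model suits the real counts. Alternatives were RLE size factors, no filter, DESeq2 1.42.0, a fit of just the groups in a comparison, a block for the replicate number, single libraries left out, counts divided by 4, no fold threshold, and limma 3.58.1 on log2(FPKM + 0.1) and log2(FPKM + 1). Chosen after seeing the data were the removal of CTR replicate 3 and AA replicate 2 together, the ratio of the igfbp5 copies, the endothelial sum without plvapb and the alternatives for list genes.

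All members are named, with, per list, the 4 genes of smallest p in any comparison (and every gene that passed), and, per tested member, the 3 genes most like it. Marker genes outside that rule (kdr, fap, pdgfra, dcn, lum, col1a1a, col1a1b, col1a2, myog, ckma, desmb, elavl3, elavl4) and the list gene stc1 were chosen after their values were seen. Members and lists were chosen with earlier results of these data known. Names and neighbours come from the RefSeq gene table of assembly fSpaAur1.1, in which all 12 members matched by gene ID. The primers come from the study's supplement. The lncRNA table was not used here.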

Additional observations from a re-analysis of the deposited data

How the results depend on the processing

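In AA vs CTR the 3 binding protein genes passed under every alternative run. The number of all genes passing in AA vs CTR (1525) became 842 with log2(FPKM + 1) and 2688 with no fold threshold, and 1286 to 1566 with a library left out. In Igf-1 vs CTR the number of all genes (46) became 208 with DESeq2, 21 with only the groups compared, 113 without CTR replicate 3 and AA replicate 2, and 1 to 58 with a library left out (1 with CTR replicate 2 left out, 23 with AA replicate 1 left out, and 8, 3 and 7 with Igf-1 replicates 1, 2 and 3 left out). The 2 binding protein genes of Igf-1 vs CTR became 1 (igfbp6a alone) with only the groups compared and with FPKM under either pseudocount, and 1 to 2 with a library left out. In AA vs Igf-1 all genes (765) became 444 with log2(FPKM + 1), 1480 with no fold threshold and 437 to 881 with a library left out (489 and 437 without Igf-1 replicates 2 and 3). The 2 binding protein genes became 1 (igfbp6a) with log2(FPKM + 1), where igfbp2a had a difference of 0.79, and 1 to 2 with a library left out. The cause of these changes was not tested. The log2 ratio of summed FPKM without igfbp6a was 0.11 in AA vs Igf-1 against −0.18 with it, and −0.29 against −1.66 in AA vs CTR. The log2 ratio of igfbp5a to IGFBP5 in Igf-1 vs CTR (−0.08) ran from −0.32 to 0.10 with a library left out, 0.10 being without CTR replicate 3. Among 483 log2FC values of members under alternatives, 14 of genes that did not pass changed sign (at most 0.33 in size). Of the named list genes, adam12 and esm1 lost their AA vs CTR call with log2(FPKM + 1), ccn5 lost its Igf-1 vs CTR call with log2(FPKM + 0.1), and esm1 passed in Igf-1 vs CTR with DESeq2, with log2(FPKM + 0.1) and without CTR replicate 3 and AA replicate 2.

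Same-numbered libraries did not deviate together (r of −0.34 to 0.19, 4 of 9 pairs over 0.1, 7 of 18 best with their own number), so the numbers were not taken as a pairing. With the replicate number as a block, 0 genes and 0 binding protein genes passed in Igf-1 vs CTR (igfbp6a adjusted p = 0.059, igfbp6b 0.11, by edgeR), though 1365 genes and 3 binding protein genes had an unadjusted p under 0.05. In AA vs Igf-1 547 genes and 1 binding protein gene (igfbp6a) passed with the block. The blocked exact permutation test allows no p below 0.25. Depth limits igfbp2a, esm1 and adam12 in CTR, as well as IGFBP4, IGFBP3 and igf1, which all rest on few sequenced pairs.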
